A study of Mus musculus with 56 samples.

Results

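Collagen genes were followed in mouse liver after removal of miR-122, the microRNA that makes up most of the microRNA pool of hepatocytes. The members are the rows of the RNA-seq table whose symbol has the form Col, number, a, number. This gave 41 genes of the 21888 symbols in the table: 11 fibrillar chains, the 6 chains of type IV of basement membranes and 24 other collagens. The other collagens are 4 beaded filament chains of type VI, 9 fibril-associated chains, 3 short-chain network genes, 2 multiplexins, 4 transmembrane collagens and 2 anchoring or unclassed genes. Each symbol had 1 row. Col6a3 and Col6a5 were not analysed here.

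RNA-seq libraries of 14 livers were used, with 1 mouse per library. Of these, 11 came from adult mice of the 129Sv/J background with loxP sites around pre-miR-122. Among them, 3 were uninjected (day 0), 3 were taken 21 days and 3 taken 45 days after tail vein injection of rAAV8-Ef1a-Cre, and 1 each at days 100 and 200, which were joined as 1 group (the late mice). The last 3 were germline miR-122 knockout mice, which are not floxed, and whose age is not given in the labels. The Ef1a promoter is not specific to hepatocytes, and the controls received no vector, so the vector and the excision cannot be told apart. In the same way the knockout cannot be told apart from its line or colony. Sex is not given. In the small RNA libraries of the floxed mice, miR-122 took 59.2% to 73.3% of microRNA reads at day 0, 8.22% to 13.2% at day 21, 0.383% to 1.23% at day 45, 4.46% in the day 100 mouse and 19.1% in the day 200 mouse. The loss of miR-122 in the knockout livers was not analysed here.

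Collagens are triple helices of 3 alpha chains that are secreted as procollagen, trimmed, laid down and cross-linked outside the cell. Fibrillar types I, III and V form the fibres of the portal tracts and of scar, while type IV forms the sheet-like network of basement membranes. In the healthy liver little fibrillar collagen is made, and hepatic stellate cells and portal fibroblasts are its main known source after injury. Type XVIII is an exception among the collagens since hepatocytes make it in the resting organ.

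Levels are FPKM as deposited, fragment numbers scaled to transcript length and, by quartile scaling, to the library. Relative to the first uninjected library, depth was 92.3% to 100% at day 0, 64.9% to 82.2% at day 21, 74.2% to 94.8% at day 45, 73.5% to 74.4% at days 100 and 200, and 43.3% to 55.7% in the knockout, so low values rest on the fewest fragments in the knockout. Between 12826 and 13162 genes reached 0.1 FPKM at day 0, against 14416 to 14433 at days 100 and 200. Among all 11354 genes tested, the median log2 change from day 0 was 0.06 at day 21, 0.20 at day 45, 0.31 at days 100 and 200 and 0.02 in the knockout, and the changes of collagens are to be read against these shifts. For collagens 2 libraries stood apart: day 45 replicate B was the highest and knockout replicate C the lowest of its group for most chains. The fibrillar and type IV sums, the counts of calls and the changes of the main fibrillar and type IV chains are given with and without them. In a bulk liver library, fewer cells of a type and less RNA per cell cannot be told apart. Alb, the most abundant hepatocyte transcript, was listed at 0 in every library and Trf, another, in most, so a 0 in this table can be a failed estimate.

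The summed level of the 11 fibrillar chains was 14.9, 16.7 and 16.8 FPKM in the uninjected livers. It was 46.1, 36.2 and 57.8 FPKM at day 21, 70.9, 216.5 and 100.6 FPKM at day 45, 156 FPKM at day 100, 83.3 FPKM at day 200 and 68.0, 82.3 and 32.1 FPKM in the knockout. Every vector-treated or knockout liver was above every uninjected liver. The group means were 16.1 ± 1.05 FPKM (SD, n = 3) at day 0, 46.7 ± 10.8 (n = 3) at day 21, 129 ± 77.0 (n = 3) at day 45, 119.8 ± 51.7 (n = 2) at days 100 and 200 and 60.8 ± 25.8 (n = 3) in the knockout, which is 2.90, 8.02, 7.43 and 3.77 times the uninjected mean. Without day 45 replicate B the day 45 mean was 85.7 FPKM, or 5.32 times day 0, and without replicate C the knockout was at 4.66 times.

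For the 6 type IV chains the sum was 6.04, 8.33 and 10.9 FPKM at day 0, 19.8, 14.8 and 16.3 FPKM at day 21, 31.9, 87.3 and 37.3 FPKM at day 45, 56.1 FPKM at day 100, 37.3 FPKM at day 200 and 30.5, 44.1 and 14.9 FPKM in the knockout. Here too no vector-treated or knockout liver overlapped the uninjected livers, with means 2.02, 6.20, 5.55 and 3.55 times that of day 0. Without day 45 replicate B the day 45 mean was 34.6 FPKM, or 4.12 times day 0, and without replicate C the knockout was at 4.44 times. The 24 other collagens together were at 139.6 ± 17.9 FPKM (SD, n = 3) at day 0 and 191.8 ± 27.0 FPKM (n = 3) at day 45. That sum was mostly Col18a1. Without it, the remaining 23 were at 15.8, 14.8 and 21.4 FPKM at day 0, 37.4, 31.0 and 29.6 FPKM at day 21, 38.7, 63.5 and 42.6 FPKM at day 45, 66.1 FPKM at day 100, 53.8 FPKM at day 200 and 44.6, 52.4 and 24.0 FPKM in the knockout, again with no overlap with day 0.

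**Figure D1:**
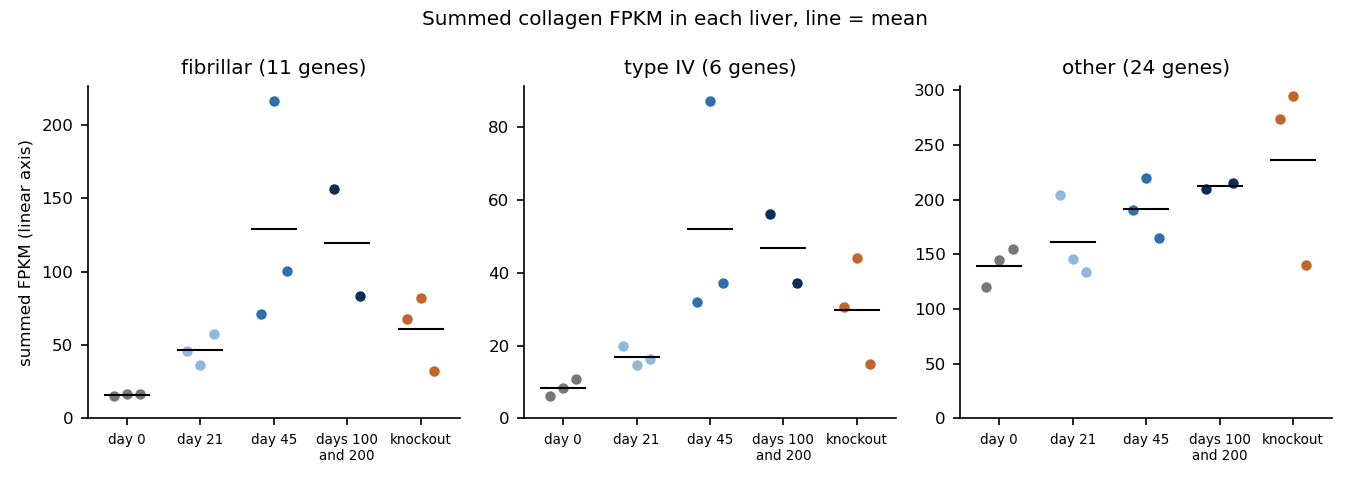
Summed FPKM (linear axis from 0) of the fibrillar, type IV and other collagens in each of the 14 livers, by group on the x axis; each point is 1 mouse and the line is the group mean. The fibrillar sum lies between 14.9 and 16.8 FPKM in the uninjected livers and reaches 216.5 FPKM in day 45 replicate B, while the sum of the other collagens, most of it Col18a1, overlaps the uninjected livers at day 21 and in the knockout.

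Of the 41 members, 17 had a mean of at least 1 FPKM over the 14 libraries and were tested: 7 fibrillar, 3 type IV and 7 others. Of these 17, 7 had a day 0 mean under 1 FPKM and so passed the filter through the groups in which they were higher. Just inside the filter were Col13a1 and Col4a5, with means of 1.42 and 1.31 FPKM, and just outside it Col8a1 and Col4a3, with 0.835 and 0.475 FPKM. Changes are log2 differences of FPKM + 1, which understate the change of low genes. Adjusted p-values come from limma over all tested genes, with a threshold of 0.05.

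At day 21, 2 of the 17 tested collagens, Col3a1 and Col14a1, were higher than at day 0, beside 6.2% of all tested genes. At day 45 it was 14 of 17, beside 23.7% of all tested genes, and at days 100 and 200 again 14 of 17, beside 28.4%. In the knockout 11 of 17 were higher, beside 19.3%. No tested collagen was lower than at day 0 in any of these 4 comparisons. By class, 5 of 7 fibrillar, 3 of 3 type IV and 6 of 7 other collagens were called at day 45, 6, 3 and 5 at days 100 and 200, and 4, 2 and 5 in the knockout. The median change of the 17 was 0.55 at day 21, 1.22 at day 45, 1.80 at days 100 and 200 and 1.03 in the knockout. All 4 comparisons share the 3 uninjected livers. Of the 10 members with a day 0 mean of at least 1 FPKM, whose passing did not need the later groups, 7 were called at day 45 and 8 at days 100 and 200. Beside these, 23.7% and 28.4% of all tested genes were higher, shares that include genes which passed through the later groups. The share among all genes with such a day 0 mean was not computed. Without any filter 40 members could be tested, and 2, 18, 23 and 15 of them were higher at day 21, day 45, days 100 and 200 and in the knockout, beside 3.94%, 22%, 30.3% and 15.4% of all genes above 0.

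Calls at day 21 turned on single mice. Every day 21 liver lay above every day 0 liver for 11 of the 17 tested collagens, beside 25.2% of all tested genes, and at day 45 the same held for 14 of 17, beside 40.5%. With only the day 0 and day 21 livers in the fit, 8 of 17 were called at day 21, beside 12.3% of all genes, and with day 0 replicate A or B left out none was, beside 2.23% and 1.7%. At day 45, 11 of 17 were called without replicate B, beside 14.2% of all genes, with Col4a5, Col15a1 and Col16a1 lost. At days 100 and 200, 9 were called without the day 100 mouse, beside 13.3% of all genes, with Col4a1, Col4a2, Col5a1, Col16a1 and Col27a1 lost. That fit holds 1 late mouse, which is assumed to vary like the other groups. In the fits with all late mice, Col5a1 was lost without any 1 of the uninjected livers too. The knockout count turned on its own replicates: without replicate C 14 of 17 were called, beside 31.7% of all genes, and without replicate A or B 5 were, beside 11.8% and 9.37%, namely Col1a1, Col1a2, Col3a1, Col6a1 and Col6a2. Without day 0 replicate A or B the knockout calls of Col5a2, Col13a1 and Col16a1 were lost, that of Col4a2 without A and that of Col15a1 without B. With only the knockout and day 0 livers in the fit it was 4, beside 7.31%. All of these were fibrillar, and no type IV or other collagen was called in the knockout in that fit. After each library was centred on its median log2 ratio, 2, 10, 12 and 11 collagens were called in the 4 comparisons, beside 5.19%, 14.5%, 15.7% and 19.1% of all genes higher. By class this was 5 fibrillar, 2 type IV and 3 other collagens at day 45, and 4, 3 and 5 at days 100 and 200. Some single calls given below at these times are thus lost with centring.

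**Figure D2:**
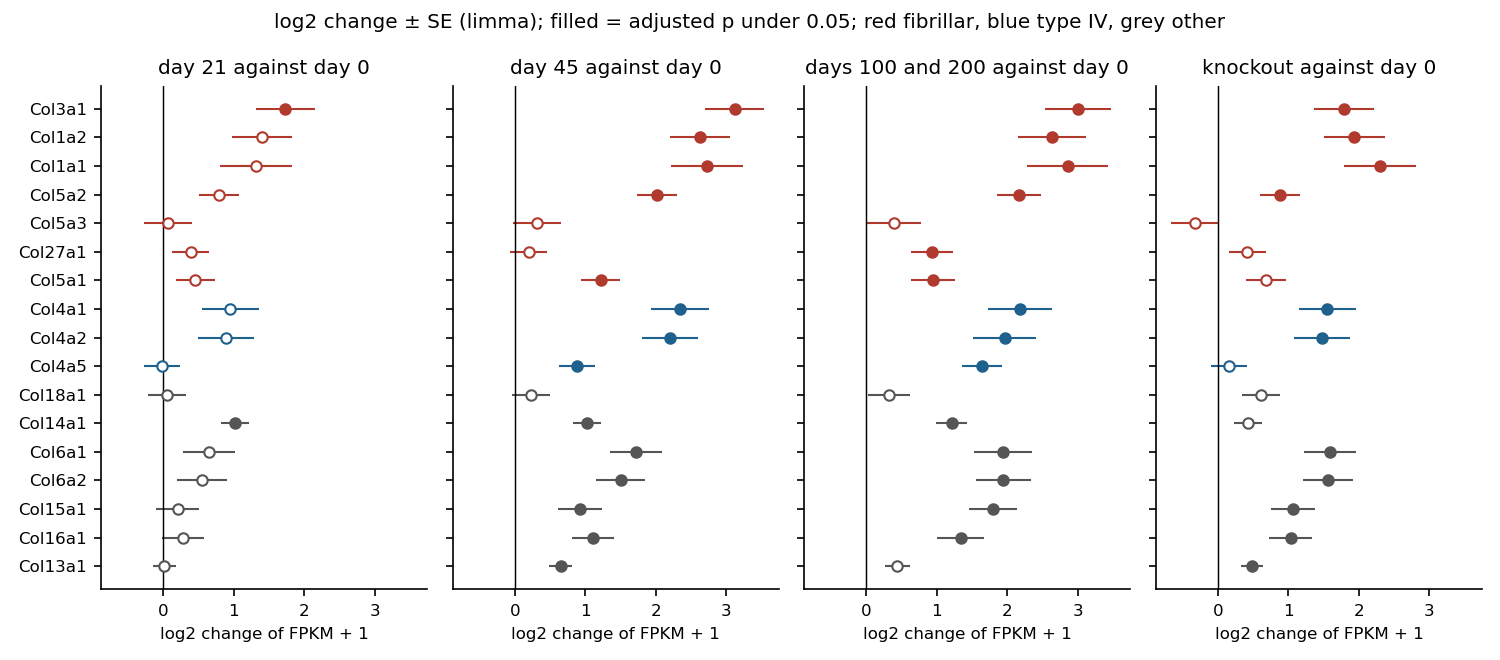
log2 change of FPKM + 1 against day 0 (x axis) for the 17 tested collagens (y axis) in 4 comparisons; points are limma estimates, bars are 1 SE and filled points have an adjusted p under 0.05. The type I and III chains lie farthest to the right at day 45, where Col3a1 is at 3.12, and Col18a1 and Col5a3 are open in all 4 panels.

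Among the fibrillar chains, Col3a1 had the highest level. It encodes the single chain of type III collagen, the reticulin fibre of the liver, and lies at chr1:45368382-45406551 (mm9, plus strand). It was at 6.75, 5.60 and 8.65 FPKM in the uninjected livers, 25.1, 20.5 and 31.2 at day 21, 39.5, 127 and 60.8 at day 45, 92.1 at day 100, 42.1 at day 200 and 32.5, 34.8 and 16.0 in the knockout. No other group overlapped the uninjected livers, and day 45 replicate B was the highest of all 14. The day 21 call was lost without any 1 of the day 21 livers. The change was 1.73 ± 0.42 (SE, adjusted p = 0.027) at day 21, 3.12 ± 0.42 (SE, adjusted p = 0.00057) at day 45, 3.00 ± 0.47 (SE, adjusted p = 0.00058) at days 100 and 200 and 1.79 ± 0.42 (SE, adjusted p = 0.0084) in the knockout. With replicate B left out it was 2.66 at day 45, and without knockout replicate C 2.13 in the knockout.

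Type I collagen, the main protein of scar, is built of chains from Col1a1 (chr11:94797583-94813170, mm9) and Col1a2 (chr6:4455696-4491543, mm9, plus strand). Col1a1 was at 0.942, 0.648 and 0.881 FPKM in the uninjected livers, 3.85, 2.40 and 4.61 at day 21, 7.20, 22.9 and 7.91 at day 45, 15.6 at day 100, 9.40 at day 200 and 10.2, 16.6 and 2.64 in the knockout. All 3 uninjected livers were under 1 FPKM and all others above 2 FPKM. Its change was 2.73 ± 0.51 (SE, adjusted p = 0.0026) at day 45, 2.85 ± 0.58 (SE, adjusted p = 0.0026) at days 100 and 200 and 2.30 ± 0.51 (SE, adjusted p = 0.0069) in the knockout. At day 21 it was 1.31 ± 0.51 (SE, adjusted p = 0.15), which did not pass. Col1a2 was at 3.13, 2.20 and 3.29 FPKM in the uninjected livers, 9.40, 7.05 and 11.5 at day 21, 14.1, 44.2 and 18.5 at day 45, 29.5 at day 100, 17.6 at day 200 and 16.9, 21.8 and 6.76 in the knockout. Again no other group overlapped the uninjected livers. Its change was 2.63 ± 0.43 (SE, adjusted p = 0.0013) at day 45, 2.63 ± 0.48 (SE, adjusted p = 0.0015) at days 100 and 200, 1.93 ± 0.43 (SE, adjusted p = 0.0066) in the knockout and 1.40 ± 0.43 (SE, adjusted p = 0.069), not called, at day 21. Without day 45 replicate B the day 45 changes were 2.23 for Col1a1 and 2.16 for Col1a2, and without knockout replicate C the knockout changes were 2.95 and 2.39.

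Of the type I and III chains, whose starts were to be shown, Col1a1 was not among the RefSeq promoters at hand. The bases before the annotated starts of Col1a2 and Col3a1 are shown. They are the 250 bases upstream of each start in RefSeq (GRCm38.p6, both plus strand), in lower case 5′ to 3′. Capitals mark the letters CCAAT, and also TATAAA and further GGGCGG, each searched on both strands. Col1a2 is at chr6:4505368-4505617 and Col3a1 at chr1:45311288-45311537.
Col1a2: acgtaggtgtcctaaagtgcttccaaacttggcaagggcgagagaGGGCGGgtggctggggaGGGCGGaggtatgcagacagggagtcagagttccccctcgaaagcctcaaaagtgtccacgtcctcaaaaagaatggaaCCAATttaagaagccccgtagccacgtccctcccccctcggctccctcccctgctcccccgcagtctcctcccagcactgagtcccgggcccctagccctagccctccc
Col3a1: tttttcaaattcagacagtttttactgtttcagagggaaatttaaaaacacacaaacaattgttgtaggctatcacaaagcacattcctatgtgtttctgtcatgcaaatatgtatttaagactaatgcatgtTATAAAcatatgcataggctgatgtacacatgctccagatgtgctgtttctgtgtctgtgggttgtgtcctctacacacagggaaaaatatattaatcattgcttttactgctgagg
No motif was shared by both windows. Col1a2 held CCAAT at -109 and, farther up, GGGCGG at -205 and -188, and Col3a1 held TATAAA at -117, counted back from the start. G and C made up 62% of the Col1a2 window and 35.2% of the Col3a1 window. Of all 32851 windows of this length, 33.8% held CCAAT, 12.4% held TATAAA and 32.7% held GGGCGG on either strand. A match is a description of the letters and not a site.

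Type V collagen nucleates and limits the width of fibrils. Its Col5a2 chain (chr1:45431175-45560127, mm9, minus strand) is the neighbour of Col3a1, 24623 bases away. Col5a2 was at 0.716, 0.658 and 1.37 FPKM in the uninjected livers, 2.11, 1.89 and 2.92 at day 21, 4.17, 11.4 and 5.96 at day 45, 9.37 at day 100, 5.91 at day 200 and 2.68, 2.68 and 2.11 in the knockout. The day 45 and later livers were all above the day 21 livers, while the 3 knockout livers lay between 2.11 and 2.68 FPKM, inside the day 21 range. Its change was 2.01 ± 0.28 (SE, adjusted p = 0.00068) at day 45, 2.16 ± 0.32 (SE, adjusted p = 0.00042) at days 100 and 200 and 0.88 ± 0.28 (SE, adjusted p = 0.032) in the knockout. At day 45 it was 1.67 with replicate B left out. Col5a1, its usual partner, was at 0.795, 0.752 and 0.877 FPKM in the uninjected livers, 1.82, 1.34 and 1.32 at day 21, 2.35, 5.62 and 2.34 at day 45, 3.25 at day 100, 1.84 at day 200 and 2.26, 2.65 and 1.05 in the knockout. It was called at day 45 (1.22, adjusted p = 0.0071) and at days 100 and 200 (0.94, adjusted p = 0.036) but not in the knockout (0.68, adjusted p = 0.075).

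Col5a3, another chain of the type V family, was at 1.35, 4.11 and 0.909 FPKM in the uninjected livers, 1.61, 1.42 and 3.16 at day 21, 1.61, 3.03 and 3.20 at day 45, 3.04 at day 100, 2.46 at day 200 and 1.87, 1.12 and 0.911 in the knockout. Its uninjected livers spanned the values of all other livers, and it passed the test in none of the 4 comparisons, with changes from -0.33 in the knockout to 0.40 at days 100 and 200. Col27a1, a fibrillar chain best known from cartilage, was at 1.15, 2.63 and 0.693 FPKM in the uninjected livers, 2.10, 1.42 and 2.99 at day 21, 1.65, 1.80 and 1.70 at day 45, 3.32 at day 100, 3.71 at day 200 and 1.49, 2.47 and 2.63 in the knockout. Its 3 day 45 livers lay inside the uninjected range, and it was called at days 100 and 200 alone, by 0.93 ± 0.29 (SE, adjusted p = 0.028), a call that was lost without day 0 replicate A or C, without either late mouse, with the 2 groups alone and after median centring. The 4 other fibrillar chains, Col2a1, Col11a1, Col11a2 and Col24a1, stayed under 0.2 FPKM in all 14 libraries, with the highest value 0.171 FPKM for Col11a2 in day 45 replicate B.

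**Figure D3:**
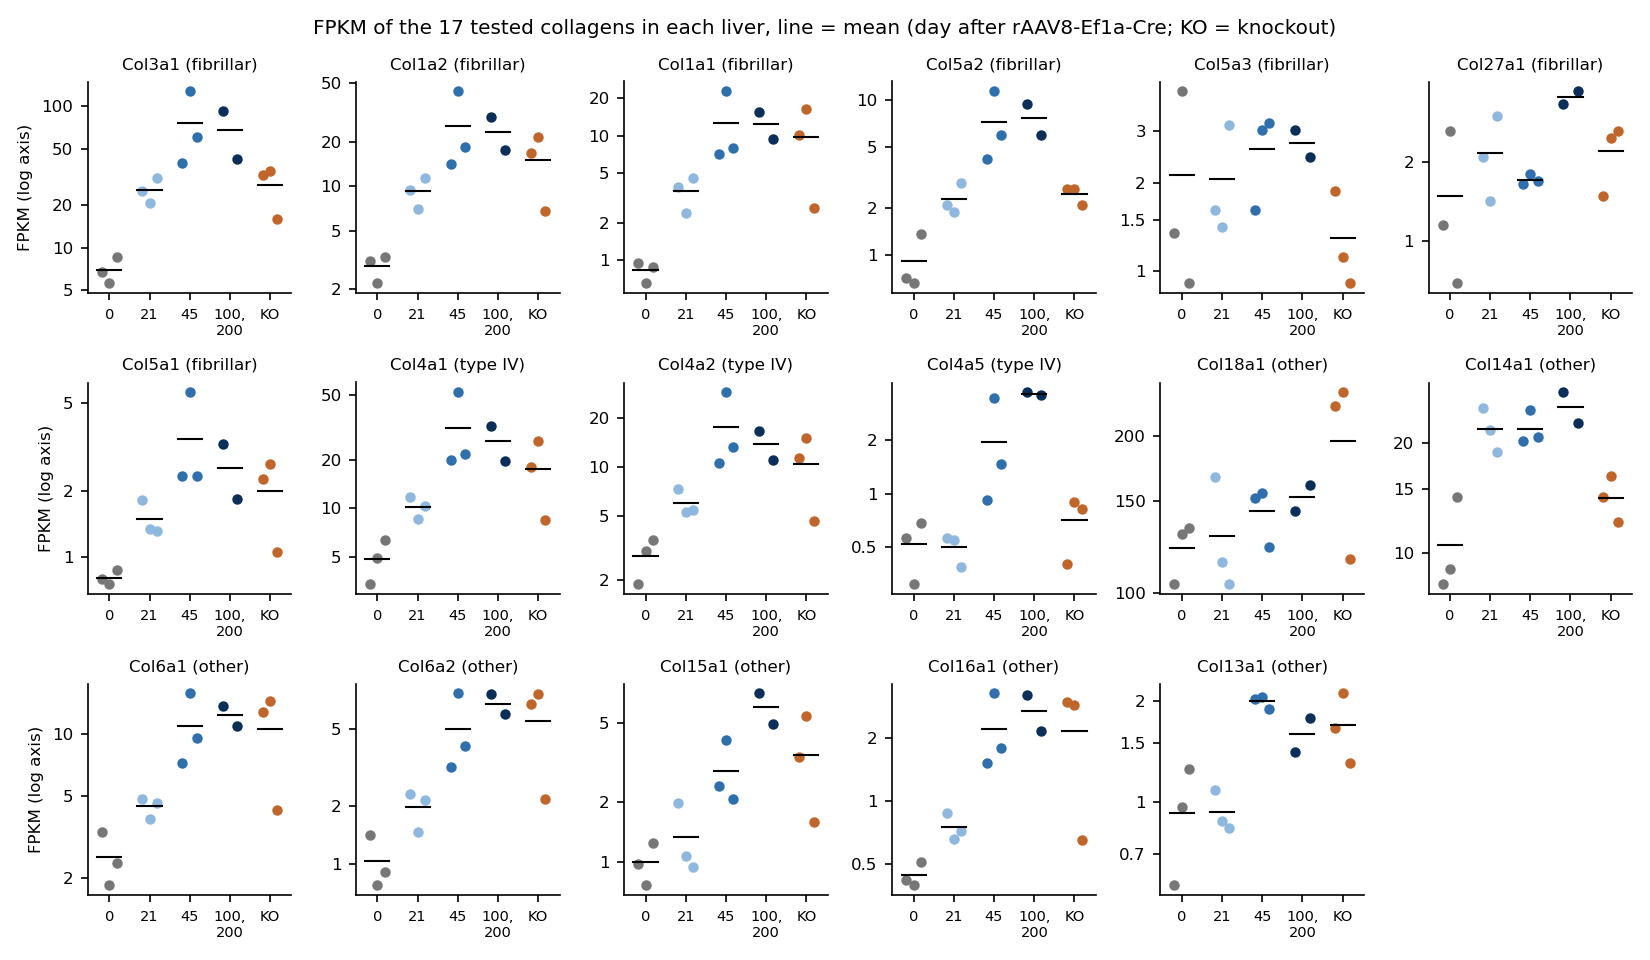
FPKM (log axis, scale differs between panels) of each tested collagen in each of the 14 livers, by day after the vector or KO for knockout on the x axis; each point is 1 mouse and the line is the group mean. Day 45 replicate B is the highest day 45 point for all but Col5a3, and the Col4a5 points of the knockout, from 0.396 to 0.893 FPKM, overlap those of day 0 and lie below those of day 45 and days 100 and 200.

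Of type IV collagen, Col4a1 and Col4a2 are the chains found in most basement membranes and in the space around liver sinusoids. They lie head to head on mm9 at chr8:11198422-11312826 (minus strand) and chr8:11312828-11449287 (plus strand), 1 base apart. Col4a1 was at 3.39, 4.93 and 6.35 FPKM in the uninjected livers, 11.7, 8.64 and 10.3 at day 21, 19.8, 52.1 and 21.7 at day 45, 32.3 at day 100, 19.6 at day 200 and 17.9, 25.9 and 8.49 in the knockout. Col4a2 was at 1.88, 3.02 and 3.52 FPKM in the uninjected livers, 7.31, 5.25 and 5.46 at day 21, 10.7, 29.1 and 13.3 at day 45, 16.7 at day 100, 11.0 at day 200 and 11.4, 15.1 and 4.67 in the knockout. For both chains each later or knockout liver was above each uninjected liver. Col4a1 changed by 2.35 ± 0.41 (SE, adjusted p = 0.0017) at day 45, 2.18 ± 0.45 (SE, adjusted p = 0.0032) at days 100 and 200 and 1.55 ± 0.41 (SE, adjusted p = 0.014) in the knockout, and Col4a2 by 2.20 ± 0.40 (SE, adjusted p = 0.0021), 1.96 ± 0.44 (SE, adjusted p = 0.0051) and 1.48 ± 0.40 (SE, adjusted p = 0.016). Neither passed at day 21, where they were at 0.95 and 0.89. Without day 45 replicate B the day 45 changes were 1.92 and 1.79, and without knockout replicate C the knockout changes were 1.97 and 1.92.

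Col4a5 (chrX:137909961-138123778, mm9), a chain of specialised membranes such as that of the kidney glomerulus, was at 0.562, 0.305 and 0.680 FPKM in the uninjected livers, 0.556, 0.547 and 0.382 at day 21, 0.917, 3.50 and 1.46 at day 45, 3.76 at day 100, 3.61 at day 200 and 0.396, 0.893 and 0.821 in the knockout. The day 21 livers lay within the uninjected range, and the 3 highest values were those of days 100 and 200 and of day 45 replicate B. Its mean over 14 libraries was 1.31 FPKM but 0.919 FPKM without the late mice, so it passed the filter through the late group, and its late call, which is among the 14 of 17 and the 3 of 3 type IV, is no support for a late rise. Its change was 0.88 ± 0.26 (SE, adjusted p = 0.023) at day 45, 1.64 ± 0.29 (SE, adjusted p = 0.0011) at days 100 and 200 and 0.16 ± 0.26 (SE, adjusted p = 0.63) in the knockout. The day 45 call was lost without day 0 replicate A or B, without day 45 replicate B, with the 2 groups alone and after median centring.

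The 3 remaining type IV genes had means under 1 FPKM. They were tested on log2(FPKM + 0.1) over 14104 genes averaging 0.1 FPKM or more, an alternative chosen after the values were seen, in which 8.47%, 29.4%, 34.6% and 22.3% of genes were higher at day 21, day 45, days 100 and 200 and in the knockout. These 3 genes entered that fit through the groups in which they were high. Col4a3 was at 0.0520, 0.0260 and 0.214 FPKM in the uninjected livers, 0.0940, 0.126 and 0.0810 at day 21, 0.216, 0.910 and 0.223 at day 45, 1.57 at day 100, 1.09 at day 200 and 0.377, 1.12 and 0.548 in the knockout. Col4a4, head to head with it and 70 bases away, was at 0.110, 0.0350 and 0.0660 FPKM in the uninjected livers, 0.122, 0.118 and 0.0710 at day 21, 0.179, 1.16 and 0.300 at day 45, 1.07 at day 100, 1.04 at day 200 and 0.315, 0.711 and 0.280 in the knockout. Both reached 1 FPKM at days 100 and 200, and their changes there were 2.96 ± 0.55 (SE, adjusted p = 0.0012) and 2.79 ± 0.53 (SE, adjusted p = 0.0014). Col4a6, head to head with Col4a5 at a distance of 1341 bases, was at 0.0460, 0.0180 and 0.0300 FPKM in the uninjected livers, 0.0590, 0.0680 and 0.0520 at day 21, 0.140, 0.580 and 0.260 at day 45, 0.708 at day 100, 0.959 at day 200 and 0.173, 0.309 and 0.0680 in the knockout. Its highest values were again those of days 100 and 200, with a change of 2.82 ± 0.43 (SE, adjusted p = 0.00037).

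Among the other collagens Col18a1 had by far the highest level of all 41. It gives rise to the basement membrane proteoglycan from which endostatin is cut, and lies at chr10:76514923-76629275 (mm9). It was at 104, 129.9 and 133 FPKM in the uninjected livers, 167, 115 and 104 at day 21, 152, 156 and 123 at day 45, 144 at day 100, 161 at day 200 and 229, 243 and 116 in the knockout. Day 21, day 45 and knockout livers overlapped the uninjected ones, and both late mice lay just above them. Its change was 0.23 ± 0.27 (SE, adjusted p = 0.61) at day 45, 0.32 ± 0.30 (SE, adjusted p = 0.45) at days 100 and 200 and 0.61 ± 0.27 (SE, adjusted p = 0.091) in the knockout. None passed. Knockout replicates A and B, at 229 and 243 FPKM, were the 2 highest of all 14 libraries, and without replicate C the gene was called in the knockout. Col15a1, the other multiplexin, which anchors basement membranes to the underlying matrix, was at 0.978, 0.761 and 1.25 FPKM in the uninjected livers, 1.98, 1.07 and 0.940 at day 21, 2.41, 4.10 and 2.07 at day 45, 7.05 at day 100, 4.92 at day 200 and 3.36, 5.42 and 1.58 in the knockout. Its mean was highest at days 100 and 200, with a change of 1.80 ± 0.34 (SE, adjusted p = 0.0019), and it was called at day 45 by 0.92 ± 0.31 (SE, adjusted p = 0.042) and in the knockout by 1.07 ± 0.31 (SE, adjusted p = 0.021). The day 45 call was lost with any 1 of the uninjected livers left out.

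Col14a1, a fibril-associated collagen of portal and capsular connective tissue (chr15:55139304-55352358, mm9), was at 8.21, 9.04 and 14.2 FPKM in the uninjected livers, 24.9, 21.6 and 18.8 at day 21, 20.2, 24.6 and 20.7 at day 45, 27.5 at day 100, 22.6 at day 200 and 14.2, 16.2 and 12.1 in the knockout. It reached its later level by day 21 and its knockout livers overlapped the uninjected ones. It was called at day 21 with 1.02 ± 0.20 (SE, adjusted p = 0.011), at day 45 with 1.02 ± 0.20 (SE, adjusted p = 0.0029) and at days 100 and 200 with 1.21 ± 0.22 (SE, adjusted p = 0.0014), but not in the knockout, at 0.43 ± 0.20 (SE, adjusted p = 0.11). Col16a1, another fibril-associated chain, was at 0.421, 0.395 and 0.509 FPKM in the uninjected livers, 0.875, 0.657 and 0.717 at day 21, 1.52, 3.28 and 1.80 at day 45, 3.21 at day 100, 2.16 at day 200 and 2.97, 2.89 and 0.653 in the knockout. Its uninjected values lay within 0.395 to 0.509 FPKM and every other liver was above them. It was called at day 45 (1.11, adjusted p = 0.016), at days 100 and 200 (1.34, adjusted p = 0.0092) and in the knockout (1.03, adjusted p = 0.022).

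Type VI collagen forms beaded filaments that link cells to the fibres around them. Col6a1 (chr10:76171536-76188789, mm9) was at 3.36, 1.84 and 2.37 FPKM in the uninjected livers, 4.84, 3.89 and 4.64 at day 21, 7.27, 15.9 and 9.64 at day 45, 13.8 at day 100, 11.0 at day 200 and 12.9, 14.5 and 4.29 in the knockout. Its neighbour Col6a2 (chr10:76058500-76086149, mm9) was at 1.41, 0.777 and 0.915 FPKM in the uninjected livers, 2.32, 1.47 and 2.16 at day 21, 3.19, 7.71 and 4.10 at day 45, 7.64 at day 100, 5.97 at day 200 and 6.80, 7.61 and 2.17 in the knockout. For both, the day 45, later and knockout livers were all above day 0. Col6a1 changed by 1.72 ± 0.36 (SE, adjusted p = 0.0047) at day 45, 1.94 ± 0.41 (SE, adjusted p = 0.0033) at days 100 and 200 and 1.59 ± 0.36 (SE, adjusted p = 0.0076) in the knockout, and Col6a2 by 1.50 ± 0.35 (SE, adjusted p = 0.0079), 1.94 ± 0.39 (SE, adjusted p = 0.0027) and 1.57 ± 0.35 (SE, adjusted p = 0.007). Col6a4 and Col6a6 stayed at or under 0.249 FPKM.

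Col13a1, a transmembrane collagen of cell contacts, was at 0.563, 0.968 and 1.26 FPKM in the uninjected livers, 1.08, 0.875 and 0.837 at day 21, 2.03, 2.06 and 1.90 at day 45, 1.41 at day 100, 1.78 at day 200 and 1.66, 2.11 and 1.30 in the knockout. Its 3 day 45 livers were close together and above all uninjected ones, and it was called at day 45 with 0.65 ± 0.16 (SE, adjusted p = 0.011) and in the knockout with 0.49 ± 0.16 (SE, adjusted p = 0.037), but not at days 100 and 200, at 0.44 ± 0.18 (SE, adjusted p = 0.084). The other transmembrane genes, Col17a1, Col23a1 and Col25a1, did not reach 0.5 FPKM in any library.

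Another 3 of the other collagens reached 1 FPKM in some library. Col8a1, a short-chain network collagen of vessel walls, was at 0.0910, 0.193 and 0.212 FPKM in the uninjected livers, 0.482, 0.455 and 0.402 at day 21, 0.707, 2.79 and 1.03 at day 45, 2.95 at day 100, 1.66 at day 200 and 0.160, 0.230 and 0.331 in the knockout. The day 45 and later livers were above all day 21 livers, while the knockout livers, from 0.160 to 0.331 FPKM, overlapped day 0. On log2(FPKM + 0.1) it changed by 2.41 ± 0.42 (SE, adjusted p = 0.0013) at day 45 and 3.16 ± 0.47 (SE, adjusted p = 0.00032) at days 100 and 200, and was at 0.36 ± 0.42 (SE, adjusted p = 0.51) in the knockout. Col8a2, which pairs with it, was at 0.156, 0.0610 and 0.0520 FPKM in the uninjected livers, 0.107, 0.124 and 0.106 at day 21, 0.135, 0.331 and 0.160 at day 45, 0.359 at day 100, 1.03 at day 200 and 0.702, 1.18 and 0.274 in the knockout. It differed from Col8a1 in that the knockout livers were all above day 0, by 1.98 ± 0.45 (SE, adjusted p = 0.0063), and day 45 did not pass, at 0.69 ± 0.45 (SE, adjusted p = 0.29). Col9a3, a fibril-associated chain of cartilage, was at 0.0370, 0.0240 and 0.0360 FPKM in the uninjected livers, 0.0670, 0.0680 and 0.0190 at day 21, 0.166, 1.10 and 0.289 at day 45, 0.381 at day 100, 0.469 at day 200 and 0.380, 0.519 and 0.0750 in the knockout, with the highest value in day 45 replicate B.

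Of the remaining members, 19 reached 1 FPKM in no library, and 9 of these did not reach 0.1 FPKM. Beside Col4a6, the means of Col12a1, Col20a1, Col23a1 and Col28a1 were above 0.1 FPKM. Col20a1, a fibril-associated chain, was at 0.178, 0.0720 and 0.144 FPKM in the uninjected livers, 0.295, 0.190 and 0.173 at day 21, 0.188, 0.207 and 0.0790 at day 45, 0.179 at day 100, 0.234 at day 200 and 0.786, 0.890 and 0.545 in the knockout. All 3 knockout livers were above all other livers. On log2(FPKM + 0.1) its change was 1.87 ± 0.30 (SE, adjusted p = 0.00083) in the knockout and 0.15 ± 0.30 (SE, adjusted p = 0.77) at day 45. Col28a1 was at 0.0540, 0.0120 and 0.0190 FPKM in the uninjected livers, 0.0690, 0.0640 and 0.0220 at day 21, 0.135, 0.186 and 0.192 at day 45, 0.471 at day 100, 0.465 at day 200 and 0.0440, 0.141 and 0.0920 in the knockout, highest in the 2 late mice. Its mean was 0.140 FPKM but 0.0858 FPKM without these mice, so it passed a minimum of 0.1 FPKM through them, and its late change with that minimum is not given. Col10a1 was listed at 0 in every library, and Col2a1, Col9a1, Col11a1 and Col19a1 in most.

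Between times after the vector, no tested collagen passed. From day 21 to day 45, 16 of the 17 had a higher estimate, with a median change of 0.89, and 13 had an unadjusted p under 0.05 by limma, beside 16% of all tested genes. None passed after adjustment, beside 0.273% of all tested genes. The estimate for Col1a1 was 1.41 ± 0.51 (SE, adjusted p = 0.21). Without day 45 replicate A, Col4a5 and Col5a2 passed, beside 1.61% of all genes higher in that fit. From day 45 to days 100 and 200 the median change was 0.13 and 12 of 17 estimates were positive. Of the 17, 3 had an unadjusted p under 0.05 by limma, beside 7.84% of all tested genes. Without Col4a5, which passed the filter through the late mice, it was 2 of 16. None passed after adjustment, beside 0.22%. With 2 late mice the SE reached 0.58, for Col1a1. Without any filter Col28a1 and Col6a6 were higher late than at day 45, beside 1.18% of all genes, and with filter and pseudocount at 0.1 FPKM 0 of 27 collagens passed, beside 0.106% of all genes called. In that fit 9 collagens, or 8 without Col28a1, had an unadjusted p under 0.05 by limma, beside 8.54% of all genes.

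The knockout was also set against day 45, which sets germline loss beside loss in the adult. Of 17 estimates, 13 were lower in the knockout, with a median of -0.53, against a median of -0.23 over all tested genes. Col5a2 alone passed, at -1.13 ± 0.28 (SE, adjusted p = 0.032), beside 8.23% of all tested genes lower. It did not pass without day 45 replicate B, where it was at -0.79, without day 45 replicate C or knockout replicate A or B, or after median centring, at -0.92. Over all alternatives its adjusted p ranged from 0.016 to 0.19. Col3a1 was at -1.33 ± 0.42 (SE, adjusted p = 0.059), Col4a5 at -0.71 ± 0.26 (SE, adjusted p = 0.075) and Col14a1 at -0.60 ± 0.20 (SE, adjusted p = 0.065). Col6a1 was at -0.13 ± 0.36 (SE, adjusted p = 0.83), Col6a2 at 0.06 ± 0.35 (SE, adjusted p = 0.91) and Col16a1 at -0.08 ± 0.30 (SE, adjusted p = 0.87). Among the members with means between 0.1 and 1 FPKM, on log2(FPKM + 0.1), Col8a1 was lower in the knockout, at -2.05 ± 0.42 (SE, adjusted p = 0.014), and Col20a1 higher, at 1.72 ± 0.30 (SE, adjusted p = 0.0058), beside 11.6% of all genes called in either direction.

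The 2 chains of a heterotrimer can be compared within a library because FPKM is per length. The ratio of Col1a1 to Col1a2 was 0.301, 0.295 and 0.267 at day 0, 0.410, 0.340 and 0.402 at day 21, 0.509, 0.518 and 0.428 at day 45, 0.530 at day 100, 0.533 at day 200 and 0.604, 0.761 and 0.391 in the knockout. Every liver after day 0 and every knockout liver had a higher ratio than every uninjected liver, and the mean went from 0.288 ± 0.018 (SD, n = 3) to 0.485 ± 0.050 (n = 3) at day 45. This ratio was noticed in the data and was given no test, and 3 mice against 3 cannot give a p under 0.1 in an exact permutation test. In contrast, the ratio of Col4a1 to Col4a2 stayed between 1.58 and 1.94 in all 14 livers, with a mean of 1.75 ± 0.10 (SD, n = 3) at day 0 and 1.76 ± 0.12 (n = 3) at day 45, while both levels rose. Col6a1 over Col6a2 was 2.44 ± 0.13 (SD, n = 3) at day 0, 2.23 ± 0.15 (n = 3) at day 45, 1.80 and 1.85 in the 2 late mice and 1.93 ± 0.04 (n = 3) in the knockout.

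**Figure D4:**
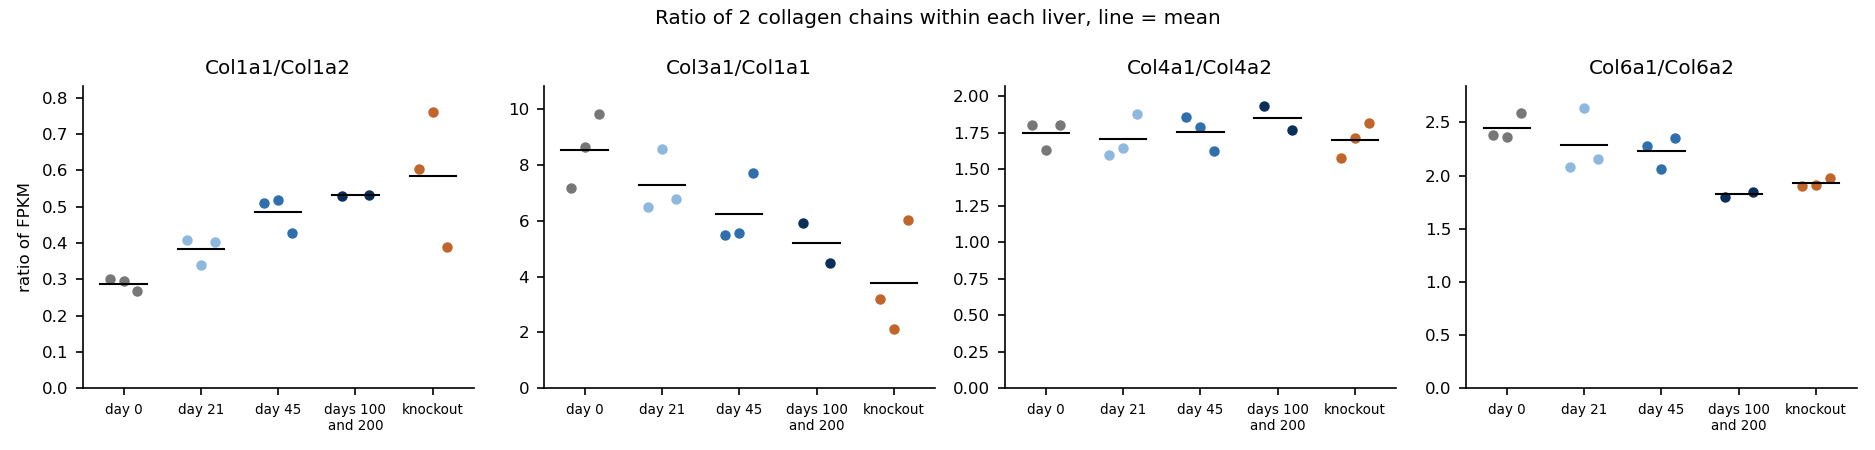
Ratio of the FPKM of 2 collagen chains (y axis from 0) within each of the 14 livers, by group; each point is 1 mouse and the line is the group mean. Col1a1 over Col1a2 is between 0.267 and 0.301 in the uninjected livers and at or above 0.340 in all others, whereas Col4a1 over Col4a2 stays between 1.58 and 1.94.

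The ratio of Col3a1 to Col1a1 had a mean of 8.54 ± 1.33 (SD, n = 3) at day 0, 7.27 ± 1.12 (n = 3) at day 21 and 6.25 ± 1.25 (n = 3) at day 45, with overlap between these groups. It was 5.90 and 4.48 in the late mice and 3.18, 2.10 and 6.04 in the knockout. Col5a1 over Col5a2, the chains of type V, was 0.964 ± 0.282 (SD, n = 3) at day 0 and 0.484 ± 0.085 (n = 3) at day 45, with all day 45 and later livers below all uninjected ones. In the knockout it was 0.776 ± 0.252 (n = 3), overlapping day 0.

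The genes that make, trim and bind collagens were taken from lists of known function, whose counts are to be read against the 23.7% of all tested genes higher at day 45, 28.4% at days 100 and 200 and 19.3% in the knockout. Of 17 collagen synthesis genes, 13 were tested, and 6 were higher at day 45, 7 at days 100 and 200 and 5 in the knockout, with none lower. Their median log2 change was 0.59 at day 45, beside 0.20 for all genes. The 3 with the largest late change were Serpinh1, the collagen chaperone, at 2.29 ± 0.48 (SE), Leprel2, a prolyl 3-hydroxylase, at 1.63 ± 0.26, and Plod2, which hydroxylates telopeptide lysines, at 1.63 ± 0.24. Plod2 was at 0.38 ± 0.22 in the knockout and did not pass there. Its mean was under 1 FPKM without the late mice, so it passed the filter through them. Its late change, counted among the 7, is thus no support for a late rise. The general enzymes P4hb and Ppib were not called in either direction.

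Of 13 genes of procollagen processing and cross-linking, 8 were tested, and 6, 5 and 4 were higher at day 45, at days 100 and 200 and in the knockout, beside 23.7%, 28.4% and 19.3% of all genes. Loxl1, a lysyl oxidase, rose late by 2.38 ± 0.43 (SE), Adamts2, the procollagen N-proteinase, by 2.23 ± 0.35 and Pcolce, the enhancer of C-propeptide removal, by 2.09 ± 0.50. In the knockout these were 2.01 ± 0.39, 1.36 ± 0.32 and 1.74 ± 0.44, all called. Pcolce was at 26.4, 44.7 and 8.19 FPKM in the knockout livers, and its change there was 2.39 without replicate C and 1.23 without replicate B, where it did not pass (adjusted p = 0.058 by limma). Late it did not pass without the day 100 mouse, at 1.86 (adjusted p = 0.082 by limma). Bmp1, the C-proteinase itself, was at 27.2 to 35.4 FPKM at day 0 and 25.4 to 31.7 FPKM at day 45 and was not called.

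Of 11 tested genes for proteins that coat or accompany fibrils, 8 were higher at day 45, 9 at days 100 and 200 and 6 in the knockout, beside 23.7%, 28.4% and 19.3% of all genes, with a median log2 change of 1.21 at day 45 and 1.92 late. Lum, a small leucine-rich proteoglycan that spaces fibrils, rose from a mean of 6.67 FPKM at day 0 to 128 FPKM at days 100 and 200, by 4.09 ± 0.35 on the log2 scale (SE). Eln, the core of elastic fibres, rose by 3.75 ± 0.61 and Bgn, another leucine-rich proteoglycan, by 2.57 ± 0.38. Of 13 tested basement membrane partners, 11 were higher at day 45, 9 late and 6 in the knockout, beside the same shares. Nid1, which joins laminin to type IV collagen, rose late by 2.35 ± 0.42 and the laminin chain Lama5 by 1.74 ± 0.29. Lama5 and Lamb3, another laminin chain of this list, had means under 1 FPKM without the late mice. Both passed the filter through those mice, so their late changes are no support for a late rise.

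Of 6 tested collagen receptors, 4 were higher at day 45 and late and 2 in the knockout, beside 23.7%, 28.4% and 19.3% of all genes. Ddr1, a receptor kinase that binds collagen on epithelial cells, had the largest late change at 3.50 ± 0.41 (SE), from a mean of 0.634 to 17.7 FPKM. Mrc2, a receptor for uptake of collagen fragments, rose by 2.17 ± 0.44 and Lair1, an inhibitory receptor of immune cells, by 1.61 ± 0.20. Among 10 tested ligands, receptors and targets of TGF-beta, the main known inducer of fibrillar collagen in stellate cells, 2 were higher at day 21, 8 at day 45, 10 late and 9 in the knockout, beside 6.2%, 23.7%, 28.4% and 19.3% of all genes. Tgfb2 had a mean under 1 FPKM without the late mice and passed the filter through them, so its late call is no support for a late rise. Timp1, which inhibits collagenases, rose late by 3.15 ± 0.60 and Ctgf, a matrix-associated growth factor, by 3.03 ± 0.55.

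Markers of other liver cells are given beside the collagens. The summed level of 13 stellate cell and fibroblast markers was 36.6, 37.7 and 48.7 FPKM at day 0, 99.9, 176.9 and 106.8 FPKM at day 45, 163 and 116 FPKM in the late mice and 76.2, 93.8 and 65.0 FPKM in the knockout. Day 45 replicate B was again the highest and knockout replicate C the lowest outside day 0. Of these 13, all tested, 11 were higher at day 45, 10 late and 6 in the knockout, beside 23.7%, 28.4% and 19.3% of all genes. Pdgfra rose late by 2.49 ± 0.31 (SE), Thy1 by 2.24 ± 0.34 and Pdgfrb by 1.70 ± 0.30. No marker of this list was at 0 in any library.

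The 6 cholangiocyte markers summed to 46.1 to 59.2 FPKM at day 0, 405 to 1331 FPKM at day 45, 1921 and 2921 FPKM in the late mice and 552 to 795 FPKM in the knockout, most of it Spp1, which injured hepatocytes and macrophages also express. All 5 tested, with Cftr untested, were higher at day 45, late and in the knockout, beside 23.7%, 28.4% and 19.3% of all genes. The largest late changes were 5.60 ± 0.40 for Spp1, 3.74 ± 0.38 for Epcam and 2.78 ± 0.63 for Krt19 (SE). Macrophage markers summed to 99.3 to 169 FPKM at day 0, 301 to 341 FPKM at day 45, 207 and 168 FPKM in the late mice and 99.6 to 250 FPKM in the knockout. The day 200 liver and knockout replicate C lay within the day 0 range. Of the 6 markers, 5 were higher at day 45, 3 late and 2 in the knockout, beside the same shares. Cd68, Csf1r and Emr1 rose late by 1.52 ± 0.44, 1.14 ± 0.38 and 1.00 ± 0.28. None of these 3 passed without the day 100 mouse (adjusted p = 0.13, 0.19 and 0.12 by limma), the day 200 mouse (0.074, 0.12 and 0.065) or day 0 replicate A or B. The other 3 did not pass late, with Marco at 0.70, Clec4f at 0.13 and Cd163 at -1.20 ± 0.46 (SE, adjusted p = 0.065), the last from 3.44 to 8.24 FPKM at day 0 to 4.04 and 0.525 FPKM in the late mice.

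Endothelial markers summed to 96.7 to 167 FPKM at day 0, 200.3 to 205 FPKM at day 45 and 86.9 to 98.8 FPKM in the knockout. Of 10 tested, 3 were higher at day 45 and 5 late, beside 23.7% and 28.4% of all genes, and Stab1, Pecam1 and Vwf rose late by 0.98 ± 0.29, 0.97 ± 0.26 and 0.80 ± 0.24. These 3 did not pass without the day 100 mouse (adjusted p = 0.11, 0.085 and 0.15 by limma) or the day 200 mouse (0.088, 0.060 and 0.084), nor Stab1 and Vwf without day 0 replicate A. In the knockout none was higher and 2 were lower, beside 14.5% of all genes lower. Lymphocyte markers were at 2.10 to 5.45 FPKM at day 0 and 15.8 to 33.7 FPKM at day 21, with 5 of 5 tested higher at day 21, at day 45 and late and 3 in the knockout, beside 6.2%, 23.7%, 28.4% and 19.3% of all genes. Ms4a1, among the 5, had a mean under 1 FPKM without the late mice and passed the filter through them. Its late call is thus no support for a late rise. Nkg7, Cd3d and Cd3e rose late by 2.02 ± 0.45, 1.30 ± 0.26 and 1.23 ± 0.31, and without the day 200 mouse Nkg7 and Cd3e did not pass (adjusted p = 0.0502 and 0.099 by limma). The 7 hepatocyte markers above 0 in every library summed to 26938 to 29638 FPKM at day 0, 20961 to 28005 FPKM at day 45, 14384 FPKM at day 100, 23689 FPKM at day 200 and 23895 to 31485 FPKM in the knockout. Of these 7, Apoa1 was lower late, at -0.94 ± 0.31, beside 3.21% of all genes lower, and the other 6 were not called. Apoa1 did not pass without the day 100 mouse, at -0.58 (adjusted p = 0.36 by limma), or without any 1 of the day 0 livers. Trf and Serpina1a, listed at 0 in most libraries, are not read. The part of these cell types in the collagen levels was not tested.

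**Figure D5:**
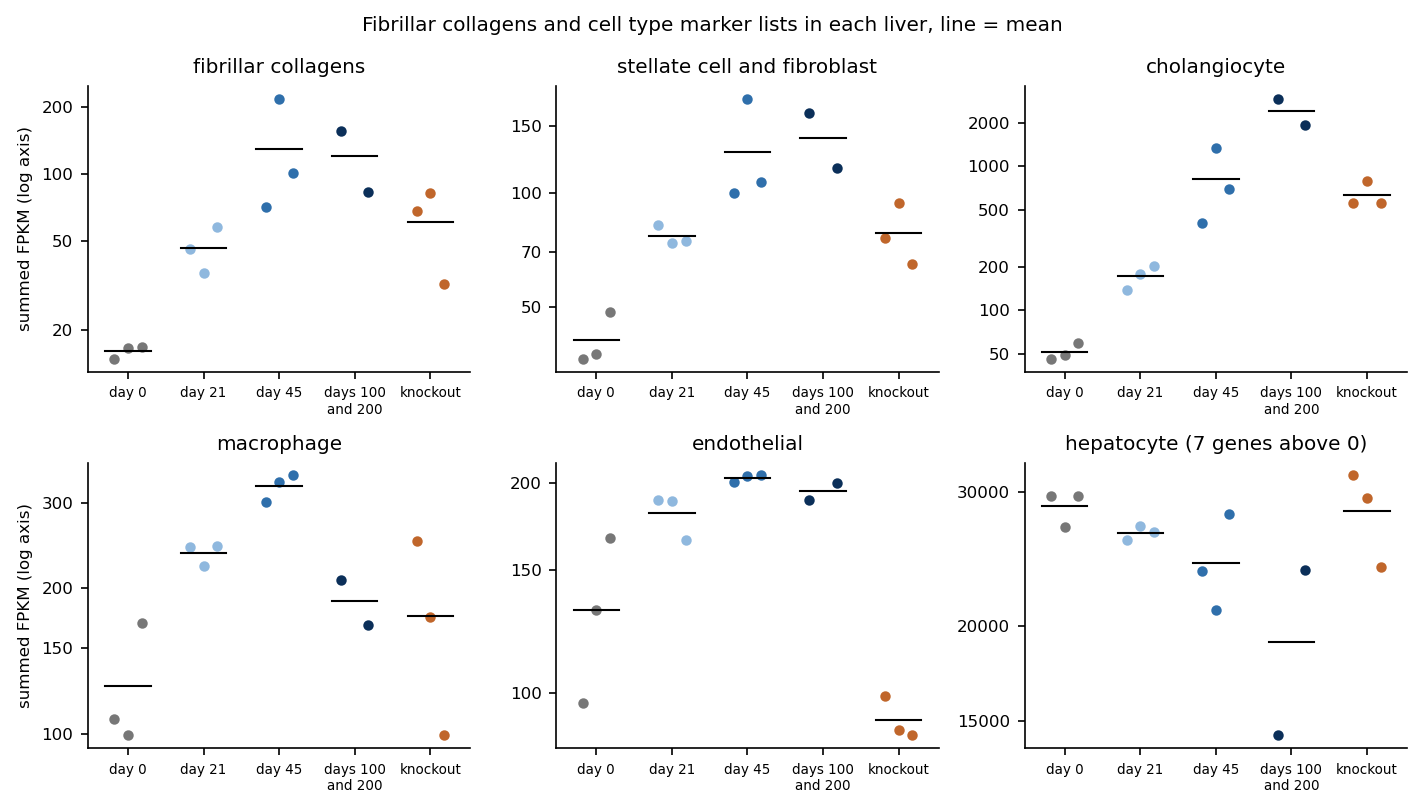
Summed FPKM (log axis, scale differs between panels) of the fibrillar collagens and of 5 lists of cell type markers in each of the 14 livers, by group; each point is 1 mouse and the line is the group mean. Stellate cell and fibroblast markers are between 36.6 and 48.7 FPKM at day 0 and between 99.9 and 176.9 FPKM at day 45, while endothelial markers in the knockout, at 86.9 to 98.8 FPKM, are not above day 0.

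The miR-29 family is known for its sites in many collagen messenger RNAs, and its 3 mature forms are shown because they share 1 seed. The sequences are those of RefSeq (GRCm38.p6), 5′ to 3′, with the seed, bases 2 to 8, in capitals. miR-29a is at chr6:31062673-31062694, miR-29c at chr1:195037600-195037621, and miR-29b is made from a locus beside each.
mmu-miR-29a-3p: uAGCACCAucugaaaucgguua
mmu-miR-29b-3p: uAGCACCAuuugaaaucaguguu
mmu-miR-29c-3p: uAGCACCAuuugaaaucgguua
The deposited small RNA values do not separate the arms of a hairpin. Summed over the family, the RPM of microRNA reads other than miR-122 were 60288, 112359 and 37426 at day 0, 113426, 120562 and 45662 at day 21, 105714, 47705 and 107782 at day 45, 51295 in the day 100 mouse and 122786 in the day 200 mouse. All groups overlapped. The log2 difference from day 0 was 0.43 at day 21 (exact two-sided permutation test, p = 0.5) and 0.37 at day 45 (exact two-sided permutation test, p = 0.7), where the smallest p that 3 mice against 3 allow is 0.1. The labels do not tie small RNA libraries to RNA-seq libraries of the same mouse, so no relation with collagen levels was computed.

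By member, miR-29a was at 29563 ± 8610 RPM other than miR-122 (SD, n = 3) at day 0 and 46221 ± 16964 (n = 3) at day 45. miR-29c was at 22464 ± 16062 (n = 3) and 27244 ± 16242 (n = 3). The rows of miR-29b went the other way in their means, from 6087 ± 5354 (n = 3) to 4628 ± 4345 (n = 3) for miR-29b-1 and from 11911 ± 8497 (n = 3) to 8974 ± 7011 (n = 3) for miR-29b-2. The ranges overlapped for all 4. Both miR-29b loci give the same mature sequence, miR-29a and miR-29c are near alike, and the authors' alignment allowed mismatches. Reads therefore cannot be assigned cleanly to these rows. In RPM of all microRNA reads, whose total holds less miR-122 after day 0, the family was 1.95 higher on the log2 scale at day 45 (exact two-sided permutation test, p = 0.1), with every day 45 liver above every day 0 liver.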

How the data were processed

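Collagen messenger RNA was read from 14 liver RNA-seq libraries (poly-A RNA, TruSeq, paired reads of 101 bases), and miR-29 from the small RNA libraries of days 0, 21, 45, 100 and 200, other days being not used here. For RNA-seq the authors aligned reads to mm9 with TopHat and deposited FPKM made by Cufflinks 2.2.1 with quartile scaling, after removal of ribosomal, snoRNA and mitochondrial sequences. FPKM hold no fragment numbers, so relative depth was read from the steps between low values of genes with 1 transcript in GENCODE M1. Depth read in this way is on the quartile scale. For small RNA the authors aligned reads to miRBase with Bowtie 0.12.7 and deposited RPM with 1 added, which was taken off here.

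The 224 symbols with several rows were summed. limma 3.58.1 in R 4.3.3 (lmFit, contrasts.fit, eBayes with trend) was run on log2(FPKM + 1) of 11354 genes averaging 1 FPKM or more, all 14 libraries and 5 groups in a single fit, with days 100 and 200 as 1 group. Each comparison had its own Benjamini-Hochberg adjustment over all tested genes, with a threshold of 0.05. The code was tested on simulated data. miR-29 reads were compared with exact two-sided permutation tests. Each library is 1 mouse. The limma p-values set a change against a spread between livers that is pooled over the 5 groups. The late group holds 1 mouse at day 100 and 1 at day 200, so its spread mixes mouse and time.

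The members and lists were chosen with earlier results of these data known. Every collagen with a mean of at least 1 FPKM is named with all its values, others by name where a library reached 1 FPKM, and of each list the 3 genes with the largest late change among those called, except some that are not reported here. Other low collagens (Col20a1, Col28a1 and those named as members of a class), P4hb, Ppib, Bmp1 and genes listed at 0 were picked after their values were seen. Alternatives were another pseudocount, other filters, median centring, no trend, 2 groups alone, a replicate block, single rows and each library left out. A fit with both filter and pseudocount at 0.1 FPKM was added after seeing the data. Loci are mm9 as deposited, which matched GENCODE M1 for 41 of 41 members. Promoters of 33 members were in the RefSeq table. The windows before Col4a1 and Col4a2 are not printed, since each lies in the transcribed part of the other. Tables and permutation tests used pandas 2.3.3 and scipy 1.17.1, and plots matplotlib 3.10.9, under Python 3.11.15 with numpy 2.4.6.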

Additional observations from a re-analysis of the deposited data

Results flagged for a closer look

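The collagens Col5a2, Col8a1 and Col20a1 differed between the knockout and day 45 by a test of the difference itself. Col5a2 was lower in the knockout by 1.13 on the log2 scale, written as a change of -1.13 ± 0.28 (SE, limma adjusted p = 0.032), with 2.68, 2.68 and 2.11 FPKM against 4.17, 11.4 and 5.96 FPKM at day 45, and all 3 knockout livers below all 3 day 45 livers. On log2(FPKM + 0.1), a setting chosen after the data were seen, Col8a1 changed by -2.05 ± 0.42 (SE, limma adjusted p = 0.014), with 0.160 to 0.331 FPKM in the knockout and 0.707 to 2.79 FPKM at day 45. On the same scale Col20a1 was higher in the knockout by 1.72 ± 0.30 (SE, limma adjusted p = 0.0058), with 0.545 to 0.890 FPKM against 0.079 to 0.207 FPKM. Line and vector differ between these groups along with the way miR-122 was lost, and cannot be told apart from it. These calls are near the share over all genes: 1 of 17 tested collagens was lower beside 8.23% of genes, and on log2(FPKM + 0.1) 3 of 27 were called beside 11.6%. The Col5a2 call was lost with median centring, with the 2 groups alone, with the replicate block and without day 45 replicate B or C or knockout replicate A or B. Dixon's test of a single far value was not run, since groups hold 2 or 3 mice.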

How the results depend on the processing

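The main counts of called collagens, 2, 14, 14 and 11 of 17 at day 21, day 45, days 100 and 200 and in the knockout against day 0, moved as follows. At day 21 the count was 4 with a pseudocount of 0.1 FPKM (7.98% of all genes higher), also with the filter lowered to 0.1 FPKM (8.47%), 8 with the 2 groups alone (12.3%) and 1 with the replicate block (3.39%). At days 100 and 200 it was 23 of 40 without a filter (30.3%), 22 of 27 with a filter of 0.1 FPKM (34.7%) and 23 of 27 with that filter and a pseudocount of 0.1 FPKM (34.6%), or 21 and 22 of 26 without Col28a1, which passes that filter through the late mice alone. In the knockout it was 18 of 27 with that filter and pseudocount (22.3%) and 4 of 17 with the 2 groups alone (7.31%). Against day 45 the days 100 and 200 count was 2 without a filter (1.18%) and 1 with a filter of 0.1 FPKM (0.837%), Col28a1, so 0 of 26 without it. The knockout count against day 45, 1 by the main test, was 3 without a filter (7.14% of all genes called in either direction), 3 with a filter of 0.1 FPKM (10.4%), also with the lower pseudocount (11.6%), and 0 with median centring (3.57%), with the 2 groups alone (0.555%) and with the replicate block (3.94%), each with 4 of 17 at an unadjusted p under 0.05 by limma. With 1 library left out, the counts ranged from 0 to 2 at day 21, 11 to 14 at day 45, 9 (without the day 100 mouse, which leaves 1 late mouse assumed to vary like the other groups) to 13 late, 5 to 14 in the knockout, 0 to 2 for day 45 against day 21, 0 to 1 for days 100 and 200 against day 45 and 0 to 3 for the knockout against day 45. In these fits 1.7% to 4.56%, 14.2% to 22%, 13.3% to 24.7%, 9.37% to 31.7%, 0% to 1.61% and 0.00881% to 0.956% of all genes were higher in the first 6 comparisons, and 2.04% to 52% were called in the last, the highest without knockout replicate C. The causes were not tested. The replicate block was no pairing: libraries of 1 letter come from different mice, and their deviations correlated from -0.45 to 0.50 over 18 pairs, against -0.41 to 0.51 over 36 pairs of different letters. At day 45 the block gave 13 calls (20.9% of all genes higher) and in the knockout 10 (15.9%).

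Median centring took the share of higher calls over all genes from 88.8% to 67.4% at day 45, from 89.8% to 64.3% late, from 57.2% to 52.7% in the knockout and from 12.8% to 45.9% for the knockout against day 45, while all called collagens stayed higher than at day 0. Uncalled collagens near 0 changed sign: with median centring Col13a1 was at -0.046 and Col18a1 at -0.011 at day 21, Col18a1 at -0.0067 and Col27a1 at -0.035 at day 45, and Col18a1 at -0.016 late. With 1 library left out, day 21 values ranged from -0.13 to 0.14 for Col13a1, from -0.15 to 0.19 for Col18a1, from -0.12 to 0.064 for Col4a5 and from -0.22 to 0.49 for Col5a3, knockout values of Col5a3 from -0.61 to 0.098, and Col27a1 was at -0.040 at day 45 without 1 library. For the single collagens, 978 of 1101 recomputed values kept their direction and side of the threshold. The miR-29 difference ranged from 0.055 to 0.89 at day 21 and from -0.012 to 0.78 at day 45 with 1 library left out; the paired test over letters gave the same differences, and a count test on whole reads was not run. Depth was lowest in the knockout, which limits values under 0.1 FPKM most.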
